A study of Homo sapiens with 24 samples.

Results

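The 10 genes described here are CDH1, which encodes the adhesion protein E-cadherin, the epithelial regulators ESRP1, ESRP2 and ELF3, the transcription factors SNAI1, SNAI2, TWIST1 and ZEB1, and the mesenchymal markers VIM and FN1. They were listed by name among the 18239 genes measured on 24 Affymetrix arrays, and each was read from its brightest probe set, the one with the highest mean signal over all arrays. ESRP2, SNAI1, SNAI2 and TWIST1 have 1 probe set each, so no other set can be held against theirs. HCT116, an established human colon cancer line, was used as parental cells and as cells transduced with ESR2, the gene of estrogen receptor beta. Both kinds of cells were kept in normoxia or hypoxia, without or with 10 nM 17β-estradiol, which gives 8 groups of 3 arrays each. The series asks whether this receptor alters the response of colorectal cancer cells to low oxygen.

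The ESR2 cells are a puromycin-selected pool with a HaloTag fusion of full-length ESR2 in a lentiviral vector that also carries GFP, and no vector control is given in the sources used here. Any difference between the lines may therefore reflect the receptor, the vector or the selection, which cannot be told apart. Low oxygen came from nitrogen and CO2 led into the incubator, for a time that is not given in the sources used here. Estradiol was added in stripped serum and medium free of phenol red, and what the untreated groups grew in is not given. Nothing in the labels tells whether the 3 replicates of a group were separate cultures, and the p-values cover the spread among these arrays alone, which may be technical.

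In the epithelial-mesenchymal transition, epithelial cells lose E-cadherin junctions and gain mesenchymal proteins such as vimentin and fibronectin. Factors of the SNAI, ZEB and TWIST families drive it, and SNAI and ZEB proteins repress CDH1 by binding E-box elements in its promoter. ESRP1 and ESRP2 maintain epithelial splice forms, and low oxygen is known to induce this transition in many carcinoma cells, with intermediate states in which epithelial and mesenchymal genes are expressed together.

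Promoter sequences in the RefSeq-derived table (GRCh38.p14) were found for 4 of the 10 genes. They are shown for ELF3, VIM and FN1, because these epithelial and mesenchymal genes rose together in hypoxia, as the values further on show; ZEB1 has 7 entries and is not shown. Each sequence holds the 250 bases before the gene's annotated start, read 5′ to 3′ on the gene's own strand. ELF3 lies at chr1:202010337-202010586 on the plus strand, VIM at chr10:17227991-17228240 on the plus strand and FN1 at chr2:215436069-215436318 on the minus strand. Capitals mark matches to the E-box CAGGTG or its reverse complement CACCTG, or to the core of the hypoxia response element, ACGTG or GCGTG, or their reverse complements CACGT and CACGC.
ELF3: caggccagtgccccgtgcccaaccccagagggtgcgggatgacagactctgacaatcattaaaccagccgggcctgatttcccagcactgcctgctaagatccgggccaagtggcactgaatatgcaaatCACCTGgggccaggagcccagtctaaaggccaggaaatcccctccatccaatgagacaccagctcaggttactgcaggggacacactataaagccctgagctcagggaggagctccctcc
VIM: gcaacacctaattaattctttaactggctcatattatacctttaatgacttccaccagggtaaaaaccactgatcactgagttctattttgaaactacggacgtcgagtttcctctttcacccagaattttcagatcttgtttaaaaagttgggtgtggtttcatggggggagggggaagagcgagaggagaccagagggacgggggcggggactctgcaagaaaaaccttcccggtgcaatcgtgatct
FN1: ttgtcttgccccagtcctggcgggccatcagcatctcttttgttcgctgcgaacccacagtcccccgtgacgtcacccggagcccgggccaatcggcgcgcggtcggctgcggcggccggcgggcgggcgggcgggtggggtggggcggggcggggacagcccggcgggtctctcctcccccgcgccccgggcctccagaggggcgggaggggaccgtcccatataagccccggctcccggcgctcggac
The window of ELF3 held 1 E-box match and no match to the core of the hypoxia response element, and those of VIM and FN1 held neither. Of 35116 windows of the same length in the table, 17.5% held the E-box and 43.2% the core of the hypoxia response element. A match describes the letters only, and no binding was measured.

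Arrays of the same group agreed closely, with correlations across probe sets of 0.9956 or higher outside parental normoxia without estradiol, where the lowest was 0.9882. The difference between 3′ and 5′ signals of control probe sets, averaged over the actin, dap and thr controls, rises when labelled RNA is shorter. It was 3.69 ± 0.29 (SD, n = 3) in hypoxic ESR2 cells with estradiol and 4.22 in replicate 2 of parental normoxia. On the other 20 arrays it was at least 1.96 and below all 3 of that group, the highest being replicate 1 of ESR2 normoxia. The same difference for GAPDH, which is not part of this index, was -0.01, 0.07 and 0.07 in hypoxic ESR2 cells with estradiol. For GAPDH it was 0.74 in replicate 2 of parental normoxia and at most -0.02 on the other arrays. ESR2 itself had a log2 signal of 3.43 to 3.48 (group means) in parental cells and of 3.93 to 4.51 in ESR2 cells, and was higher in ESR2 cells in all 4 settings. In ESR2 cells it was lower in hypoxia, with changes of -0.44 without (adjusted p = 0.0124 in limma) and -0.48 with estradiol (adjusted p = 0.00401). The hypoxic means were 4.07 and 3.93, where array medians lay between 4.07 and 4.13. The probe set measures the cell's own and the introduced message together as far as both hold its sequence, which is not given in the sources used here. The epithelial markers EPCAM, KRT8, KRT18 and KRT19 were bright in all groups, whereas the means over 24 arrays of KRT20, VIL1, CDH17 and LGALS4 of the colon list lay under the arrays' medians. KRT20 was at 4.34 in hypoxic ESR2 cells with estradiol, above the medians of those arrays, and at 3.02 to 3.29 in the other groups. All 10 fibroblast markers lay under the arrays' medians, and the mean of that list ranged only from 3.01 to 3.15 across groups, COL1A1 being the highest at 3.92. Of 9 measured leukocyte markers 8 lay under the medians, the exception being CD68, and their mean ranged from 3.39 to 3.77. For the kidney line used to package the virus, 6 of 10 markers lay under them and the list mean ranged from 3.94 to 4.23. Single markers moved more than the list means, as given beside the changes they move with.

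**Figure D1:**
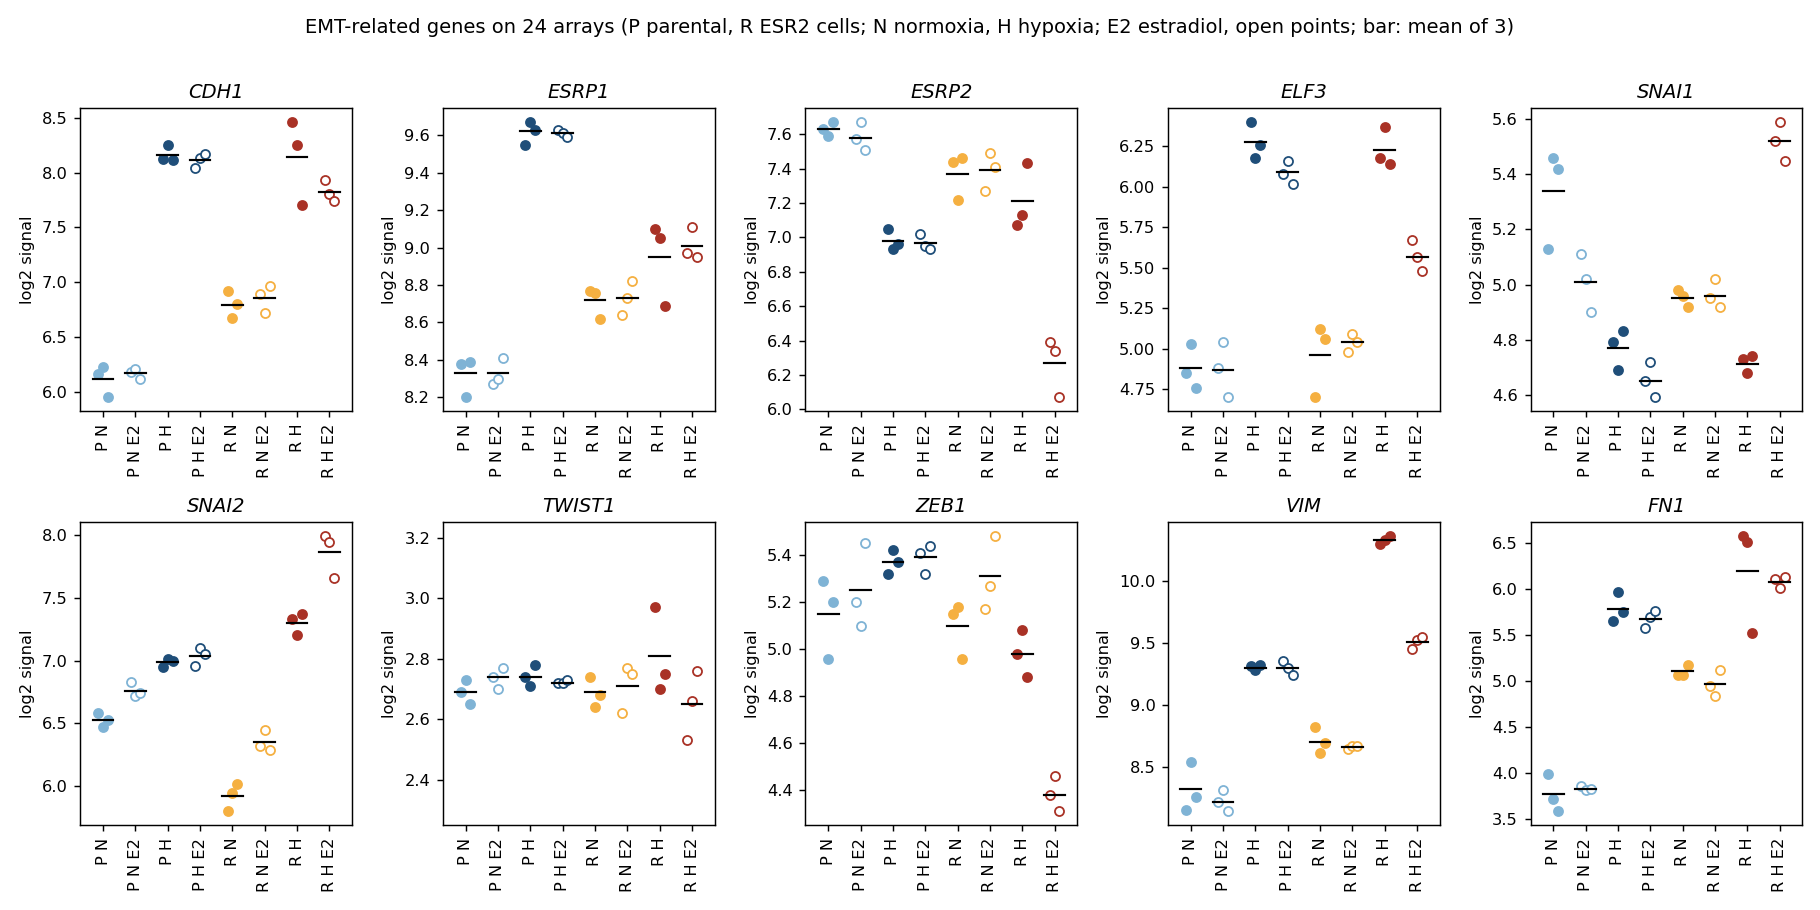
Log2 signal of the 10 genes on each of the 24 arrays, 1 panel per gene with its own axis; P is parental, R ESR2 cells, N normoxia, H hypoxia and E2 estradiol (open points), and bars are means of 3 arrays. CDH1, ELF3, VIM and FN1 are higher in every hypoxic array than in any normoxic array of the same cells, and TWIST1 stays between 2.53 and 2.97.

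In hypoxia without estradiol, CDH1 rose together with VIM, FN1 and SNAI2, in parental and in ESR2 cells alike. In parental cells 6 of the 10 genes rose (CDH1, ESRP1, ELF3, SNAI2, VIM and FN1), 2 fell (ESRP2 and SNAI1) and 2 did not pass the test (TWIST1 and ZEB1). Over all 18239 genes 16.4% rose and 21.2% fell in this comparison, by limma at an adjusted p under 0.05, the threshold used throughout. In ESR2 cells the same 6 genes rose, SNAI1 fell, and ESRP2, TWIST1 and ZEB1 did not pass, against 14.4% of all genes rising and 18.2% falling. In hypoxia the kidney-line marker DLX2 went from 5.56 to 4.45 in parental and from 5.43 to 6.60 in ESR2 cells (group means), and its part in these results was not tested. The median change of the 10 genes was 0.72 in parental and 0.66 in ESR2 cells, where that of all genes was 0.00 and -0.06. All changes are differences of mean log2 signals with limma's standard error (SE), so that 1 stands for a doubling. In these bulk samples a change per cell and a change in the share of cells that express a gene cannot be told apart.

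CDH1 had log2 signals of 6.16, 6.23 and 5.95 in normoxic parental cells and of 8.12, 8.25 and 8.11 in hypoxic ones. Every hypoxic array was well above every normoxic one. The rise was 2.04 (SE 0.13, 95% confidence interval 1.78 to 2.30, adjusted p = 4.2e-12 in limma), a fold of 4.11. By size of change, CDH1 took rank 83 among the 18239 genes. In ESR2 cells the signals were 6.92, 6.67 and 6.80 in normoxia and 8.46, 8.25 and 7.70 in hypoxia. Both groups again stood apart, although replicate 3 of hypoxia was lower than the other two. The rise was 1.34 (SE 0.13, adjusted p = 1.62e-08 in limma), which was smaller than in parental cells by 0.70 (SE 0.18, adjusted p = 0.00395 for the interaction in limma). The smaller rise went with a higher starting level, since normoxic ESR2 cells exceeded normoxic parental cells by 0.68 (adjusted p = 0.000452 in limma) and the hypoxic groups differed by -0.02 (95% confidence interval -0.28 to 0.24, adjusted p = 0.924). The order of the 8 group means ran from 8.16 in parental hypoxia to 6.12 in parental normoxia, and only the first 3 and the pairs with and without estradiol in normoxia overlapped with their neighbour. These values rest on 1 of 2 probe sets: the other, with a mean of 3.32 over all arrays, showed changes of 0.00 and 0.13 in hypoxia and reversed the sign of the interaction (0.13, adjusted p = 0.488).

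ESRP1, a splicing regulator of epithelial cells, rose far more in parental than in ESR2 cells. In parental cells it measured 8.38, 8.20 and 8.39 in normoxia and 9.55, 9.67 and 9.63 in hypoxia. The groups lay more than 1 log2 unit apart, with a rise of 1.29 (SE 0.09, adjusted p = 2.19e-11 in limma). In ESR2 cells it measured 8.77, 8.76 and 8.62 in normoxia and 9.10, 9.05 and 8.69 in hypoxia, with replicate 3 of hypoxia inside the normoxic range. The rise of 0.23 (SE 0.09, adjusted p = 0.0467 in limma) was lost when any 1 array other than that replicate was left out (0.15 to 0.26, adjusted p up to 0.253) and was 0.36 without that replicate (adjusted p = 0.00105); it was also lost with a replicate block (adjusted p = 0.0583). The response was smaller in ESR2 cells by 1.06 (SE 0.12, adjusted p = 5.16e-07 for the interaction in limma). The order of the lines differed with oxygen: against parental cells, ESRP1 of ESR2 cells was 0.39 higher in normoxia (adjusted p = 0.00274) and differed by -0.67 in hypoxia (adjusted p = 1.18e-06). On its second probe set the parental rise was 0.93 and the ESR2 change 0.13, with an interaction of -0.80.

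ESRP2, the paralog of ESRP1 with a similar role in splicing, moved the opposite way in parental cells. It measured 7.63, 7.59 and 7.67 in normoxia and 7.05, 6.93 and 6.96 in hypoxia, with no overlap. It fell by 0.65 (SE 0.09, adjusted p = 4.26e-06 in limma). In ESR2 cells the signals of 7.44, 7.22 and 7.46 in normoxia and 7.07, 7.13 and 7.43 in hypoxia overlapped through replicate 3 of hypoxia. The change of -0.17 (95% confidence interval -0.36 to 0.03) did not pass (adjusted p = 0.19 in limma), but passed without that replicate (-0.28, adjusted p = 0.0237). The interaction was 0.48 (SE 0.13, adjusted p = 0.00736 in limma). The paralogs thus parted in hypoxic parental cells, where every array lay above the normoxic range for ESRP1 and below it for ESRP2.

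ELF3, an ETS factor of epithelial differentiation, measured 4.85, 5.03 and 4.76 in normoxic parental cells and 6.40, 6.18 and 6.26 in hypoxic ones. In ESR2 cells it measured 4.70, 5.12 and 5.06 in normoxia and 6.18, 6.37 and 6.14 in hypoxia. In both lines the hypoxic arrays lay more than 1 log2 unit above the normoxic ones. The rises were 1.40 (SE 0.10, adjusted p = 9.8e-11 in limma) and 1.27 (SE 0.10, adjusted p = 2e-09). Of the 6 genes that rose, ELF3 alone had no called difference between the lines on the brightest probe set, with an interaction of -0.13 (95% confidence interval -0.44 to 0.17, adjusted p = 0.53 in limma). Its second probe set rose by 1.85 and 1.56. The dimmest of its 3 sets, at a mean of 3.21, differed: it changed by 0.33 in parental cells (adjusted p = 0.114 in limma over all probe sets) and rose by 1.08 in ESR2 cells, with an interaction of 0.75 (adjusted p = 0.0141).

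**Figure D2:**
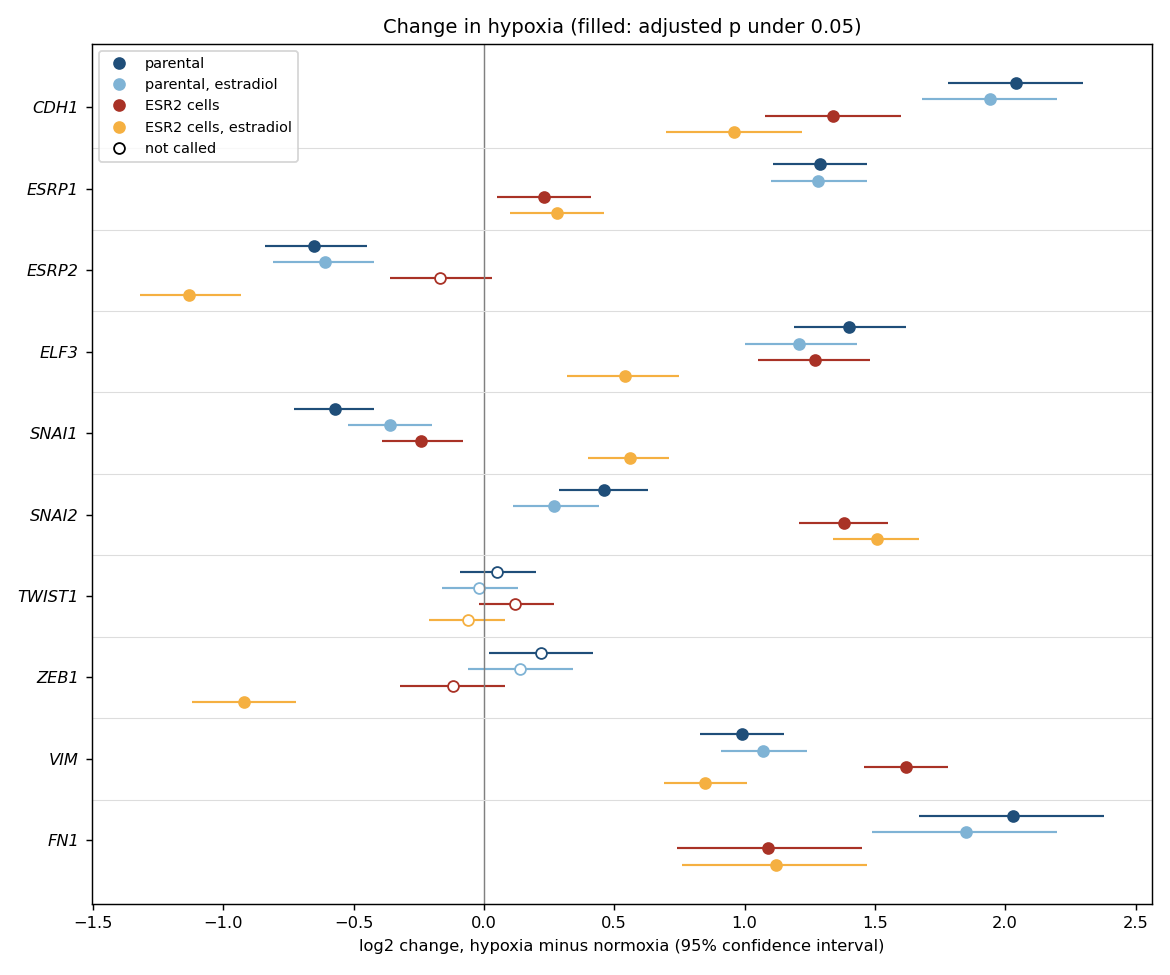
Log2 change in hypoxia (hypoxia minus normoxia) of each gene in parental and ESR2 cells, without and with estradiol, with 95% confidence intervals; filled points passed limma's adjusted p of 0.05 and open ones did not. The parental rises of CDH1 (2.04) and ESRP1 (1.29) exceed those of ESR2 cells (1.34 and 0.23), whereas SNAI2 rises by 0.46 in parental and 1.38 in ESR2 cells.

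SNAI1, which encodes the zinc finger repressor Snail, was lower in hypoxia. Its signals were 5.13, 5.46 and 5.42 in normoxic and 4.79, 4.69 and 4.83 in hypoxic parental cells, and 4.98, 4.96 and 4.92 in normoxic and 4.73, 4.68 and 4.74 in hypoxic ESR2 cells. The groups did not overlap in either line. SNAI1 fell by 0.57 in parental cells (a change of -0.57, SE 0.08, adjusted p = 1.08e-06 in limma) and by 0.24 in ESR2 cells (-0.24, SE 0.08, adjusted p = 0.0181). The smaller fall was lost without replicate 1 of ESR2 normoxia or replicate 2 of ESR2 hypoxia (adjusted p up to 0.0602), and with the control index as a covariate (-0.18, adjusted p = 0.0795). The interaction of 0.33 (adjusted p = 0.0194) ended without replicate 2 or 3 of parental normoxia or replicate 2 of parental hypoxia, with adjusted p up to 0.0559. It also ended with the spread from only the groups compared (adjusted p = 0.057 in limma). The same held with the control index as a covariate and replicate 2 of parental normoxia left out (0.28, adjusted p = 0.07).

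SNAI2, which encodes the related repressor Slug, moved the other way and much more in ESR2 cells. Its signals were 6.58, 6.47 and 6.53 in normoxic parental cells and between 6.95 and 7.01 on the 3 arrays of hypoxic ones. In ESR2 cells they were 5.80, 5.95 and 6.02 in normoxia and 7.33, 7.20 and 7.37 in hypoxia. The ESR2 groups thus lay on both sides of the parental range, lowest of all in normoxia and above every parental array in hypoxia. SNAI2 rose by 0.46 in parental cells (SE 0.08, adjusted p = 4.6e-05 in limma) and by 1.38 in ESR2 cells (SE 0.08, adjusted p = 7.72e-12), a difference of 0.92 (SE 0.11, adjusted p = 1.16e-06 for the interaction). Among all genes it took rank 4079 by size of change in parental and rank 110 in ESR2 cells. Of the 8 group means only those of hypoxic parental cells with and without estradiol overlapped.

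TWIST1, a helix-loop-helix factor of mesenchymal cells, gave no measurable response. Its signals on all arrays lay between 2.53 and 2.97, below the median of every array, so this probe set cannot tell a low level from none. The changes in hypoxia were 0.05 (95% confidence interval -0.09 to 0.20) in parental and 0.12 (-0.02 to 0.27) in ESR2 cells, and neither passed. ZEB1, a zinc finger repressor of CDH1, measured 5.29, 4.96 and 5.20 in normoxic and 5.32, 5.42 and 5.37 in hypoxic parental cells. Its groups did not overlap, but by little. The change of 0.22 (SE 0.10, 95% confidence interval 0.02 to 0.42) did not pass (adjusted p = 0.0857 in limma), though it did without replicate 1 of parental normoxia (0.29, adjusted p = 0.0354). In ESR2 cells the change was -0.12 (adjusted p = 0.388). Neither TWIST1 nor ZEB1 was therefore called in either line in hypoxia without estradiol.

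VIM, which encodes the intermediate filament vimentin, measured 8.15, 8.54 and 8.26 in normoxic and 9.31, 9.28 and 9.32 in hypoxic parental cells. In ESR2 cells it measured 8.82, 8.61 and 8.69 in normoxia and 10.30, 10.33 and 10.36 in hypoxia, which were the highest values of the gene on any array. VIM rose by 0.99 in parental cells (SE 0.08, adjusted p = 2.95e-10 in limma) and by 1.62 in ESR2 cells (SE 0.08, adjusted p = 2.61e-13). The difference of 0.64 (SE 0.11, adjusted p = 8.91e-05 for the interaction) had the opposite sign to that of CDH1. Both probe sets of VIM gave nearly equal values (0.99 and 0.97 in parental cells, 1.62 and 1.61 in ESR2 cells).

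FN1, which encodes the matrix protein fibronectin, measured 3.99, 3.72 and 3.58 in normoxic and 5.65, 5.97 and 5.75 in hypoxic parental cells. In ESR2 cells it measured 5.07, 5.07 and 5.18 in normoxia and 6.58, 6.52 and 5.52 in hypoxia. Normoxic parental cells stood far below the other groups without estradiol, and replicate 3 of hypoxic ESR2 cells stood about 1 log2 unit below its partners. FN1 rose by 2.03 in parental cells (SE 0.17, adjusted p = 1.05e-09 in limma) and by 1.09 in ESR2 cells (SE 0.17, adjusted p = 2.48e-05), with an interaction of -0.93 (SE 0.24, adjusted p = 0.00487). The size of these values depends on the probe set. On the second brightest of its 8 probe sets FN1 rose by 0.77 and 0.66, with an interaction of -0.11 (adjusted p = 0.645). On the remaining 6 the parental change ranged from 0.05 to 0.60. Their interactions ranged from -0.12 to 0.24, most of them above 0, and none passed (lowest adjusted p = 0.519 in limma over all probe sets). The change in hypoxia was above 0 on all 8 probe sets in both lines, though 3 of them did not pass in parental cells when all probe sets were tested (0.41, 0.24 and 0.05).

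**Figure D3:**
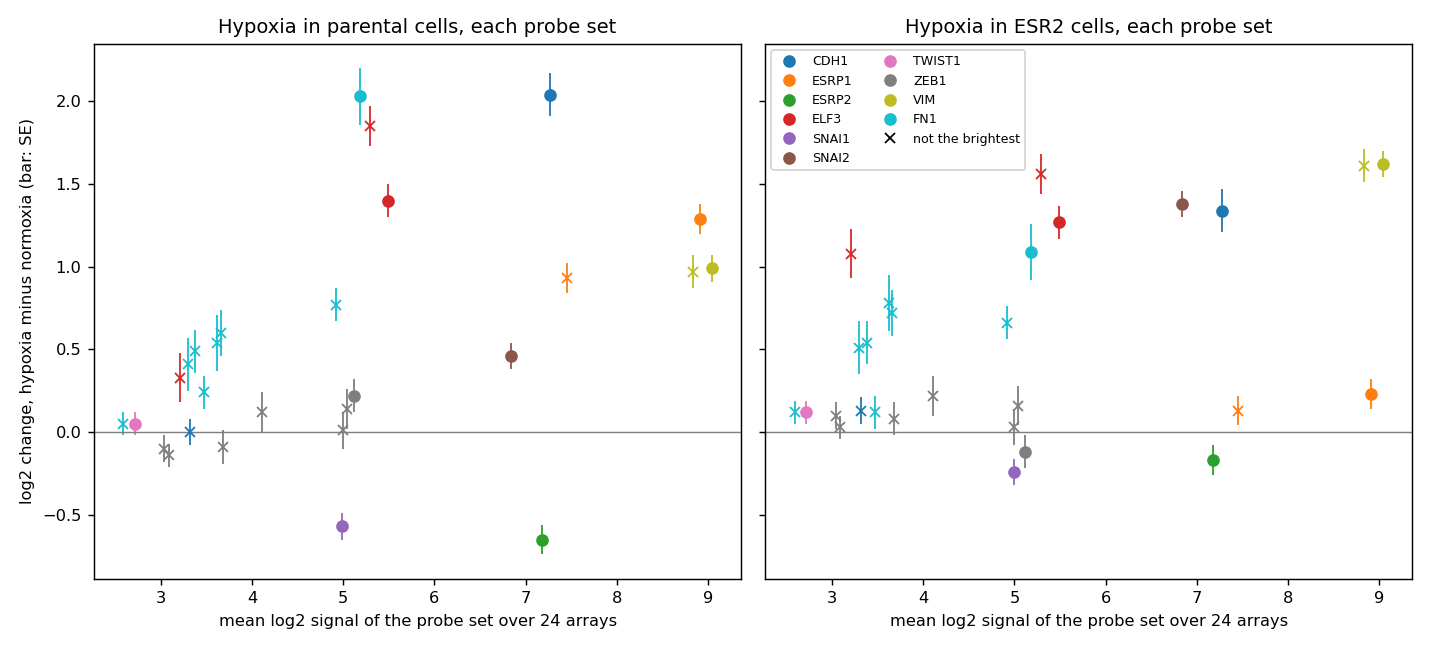
Log2 change in hypoxia without estradiol (hypoxia minus normoxia, bars are SE) of all 28 probe sets of the 10 genes against their mean log2 signal over 24 arrays; circles are the brightest set of each gene and crosses the others. The brightest set of FN1 (2.03 in parental cells) stands above its other 7, the dim second set of CDH1 lies at 0.00, and the 2 sets of VIM coincide.

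Without hypoxia and estradiol, ESR2 cells already had higher CDH1, ESRP1, VIM and FN1 and lower SNAI1 and SNAI2 than parental cells. These are 4 genes higher and 2 lower, where 9.76% of all genes were higher and 8.86% lower, and ESRP2, ELF3, TWIST1 and ZEB1 did not pass. FN1 differed most, by 1.34 (SE 0.17, adjusted p = 7.49e-06 in limma), rank 26 of all genes by size, followed by CDH1 (0.68, SE 0.13), ESRP1 (0.39, SE 0.09) and VIM (0.39, SE 0.08). SNAI2 was lower by 0.61 (a difference of -0.61, SE 0.08, adjusted p = 1.14e-05) and SNAI1 by 0.39 (-0.39, SE 0.08, adjusted p = 0.000778). The call of FN1 ended on its second probe set (0.25, adjusted p = 0.109), as did those of CDH1 (-0.07, adjusted p = 0.666) and ESRP1 (0.09, adjusted p = 0.594). Those of SNAI1 and VIM ended when the spread was taken from the 2 groups alone (adjusted p = 0.0645 and 0.0935).

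In hypoxia without estradiol, ESR2 cells exceeded parental cells in VIM and SNAI2 and had less ESRP1 and ZEB1. These 2 genes higher and 2 lower stood against 20.4% and 20.0% of all genes. VIM was higher by 1.02 (SE 0.08, adjusted p = 2.49e-10 in limma), SNAI2 by 0.31 (SE 0.08, adjusted p = 0.00298). ESRP1 differed by -0.67 (SE 0.09) and ZEB1 by -0.39 (SE 0.10, adjusted p = 0.00254), the latter only -0.06 (adjusted p = 0.741) on its second probe set. CDH1, ELF3 and SNAI1 differed by -0.02, -0.05 and -0.05, each with an interval that includes 0. FN1 differed by 0.41 (SE 0.17, adjusted p = 0.059), a value that rests on replicate 3 of the hypoxic ESR2 cells: without it FN1 was higher by 0.75 (adjusted p = 5.31e-06), and it also passed without replicate 2 of parental hypoxia (0.51). ESRP2 differed by 0.23 (adjusted p = 0.0583), which passed without replicate 1 of hypoxic ESR2 cells (0.30, adjusted p = 0.0277). ELF3 was higher by 0.30 (adjusted p = 0.00788) on the mean of its 3 probe sets, through the dimmest of them (1.06).

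The difference between the lines in their response to hypoxia was tested for each gene. Without estradiol it passed for 7 of the 10 genes: the change was more positive in ESR2 cells for ESRP2, SNAI1, SNAI2 and VIM, and less so for CDH1, ESRP1 and FN1. Over all genes 16.4% had a positive and 14.3% a negative interaction. The remaining 3 genes were ELF3, TWIST1 and ZEB1, of which ZEB1 (-0.33, adjusted p = 0.0693 in limma) passed without replicate 1 of parental normoxia or replicate 3 of ESR2 normoxia (-0.40 in both). ZEB1 also passed with quantile normalization again (-0.38, adjusted p = 0.0282). With the mean of each gene's probe sets the calls of CDH1 (-0.28, adjusted p = 0.056) and FN1 (-0.07, adjusted p = 0.709) ended.

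**Figure D4:**
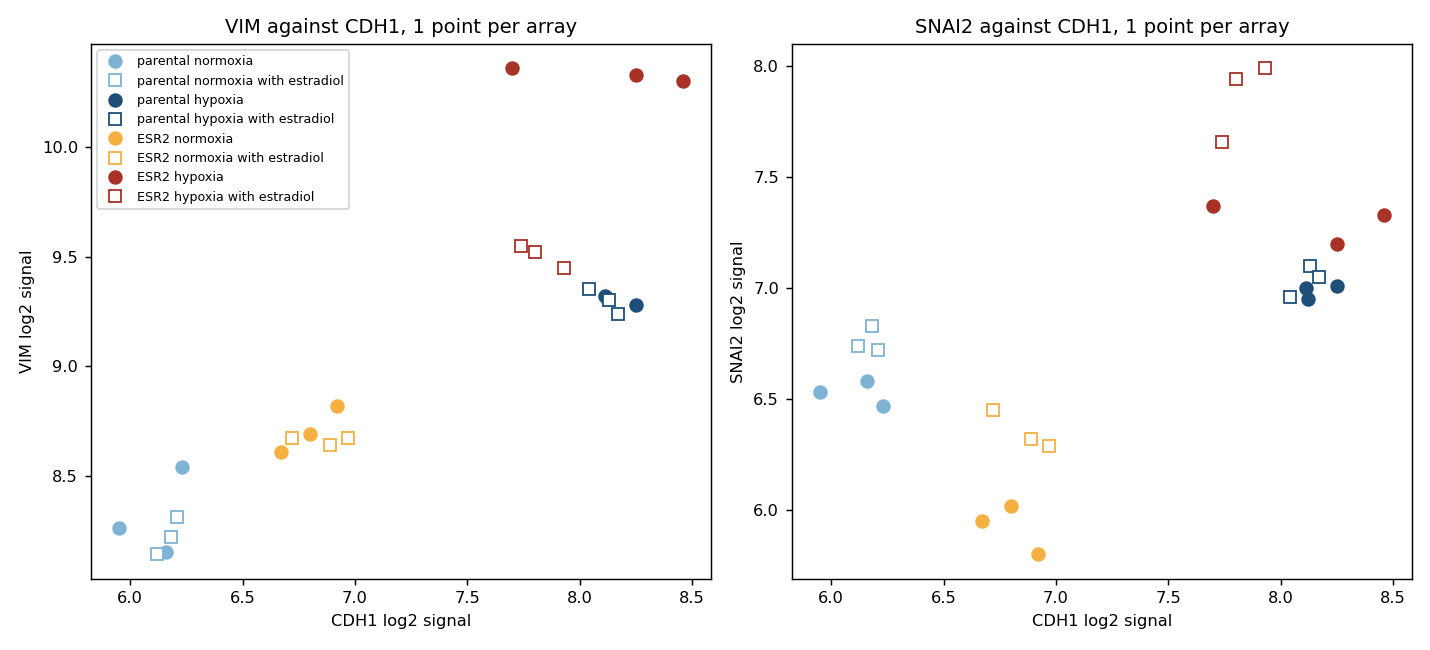
Log2 signal of VIM (left) and SNAI2 (right) against that of CDH1, 1 point per array, coloured by cells and oxygen, with open squares for estradiol. Hypoxic arrays lie to the right. Hypoxic ESR2 cells without estradiol reach VIM signals of 10.30 to 10.36 at CDH1 signals of 7.70 to 8.46. SNAI2 of normoxic ESR2 cells without estradiol lies lowest (5.80 to 6.02).

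Estradiol left the 10 genes uncalled in 3 of 4 settings. In normoxic parental cells 0 members and 2 genes (0.0110%) were called by limma, with 2524 genes at an unadjusted p under 0.05. The untreated group of this comparison holds replicate 2 of parental normoxia, the array with the highest index. With array weights 2 members and 604 genes were called there. In hypoxic parental cells 0 members and 3 genes (0.0164%) were called, with 846 at an unadjusted p under 0.05. In normoxic ESR2 cells 0 members and 0 genes (0%) were called, with 981 at an unadjusted p under 0.05. The changes of members nearest to the threshold were those of the SNAI genes. SNAI2 went from 5.80, 5.95 and 6.02 to 6.32, 6.45 and 6.29 with estradiol in normoxic ESR2 cells. The groups did not overlap, and the change of 0.43 (SE 0.08, 95% confidence interval 0.26 to 0.60) had an adjusted p of 0.102 and took rank 10 of all genes by size. With array weights it passed (0.44, adjusted p = 0.015). SNAI1 changed by -0.33 (SE 0.08, adjusted p = 0.167) in normoxic parental cells, from 5.13, 5.46 and 5.42 to 5.11, 5.02 and 4.90. It passed without replicate 1 of parental normoxia (-0.43, adjusted p = 0.0258) and with array weights (-0.39, adjusted p = 0.00135). In the same comparison SNAI2 changed by 0.24 (adjusted p = 0.267), which passed with array weights (0.22, adjusted p = 0.0394).

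In hypoxic ESR2 cells with estradiol, SNAI1 and SNAI2 were higher and CDH1, ESRP2, ELF3, ZEB1 and VIM lower than without. These 2 rises and 5 falls stood against 35.4% of all genes higher and 21.6% lower, 10394 of 18239 in all. The same 3 arrays had the raised 3′ minus 5′ index of 3.69 ± 0.29 (SD, n = 3), against 2.08 ± 0.12 in hypoxic ESR2 cells without estradiol, so estradiol and the state of the labelled RNA cannot be told apart in this group. Between the same groups the leukocyte marker CD68 went from 5.55 to 7.23, the kidney-line marker MEIS2 from 6.56 to 5.27 and the colon marker KRT20 from 3.25 to 4.34 (group means), and their part in the result was not tested. SNAI1 measured 4.73, 4.68 and 4.74 without and 5.52, 5.59 and 5.45 with estradiol, and rose by 0.80 (SE 0.08, adjusted p = 5.62e-09 in limma). The mean of 5.52 was the highest of the 8 groups for SNAI1, with a range that overlapped that of normoxic parental cells. SNAI2 measured 7.33, 7.20 and 7.37 without and 7.99, 7.94 and 7.66 with estradiol, and rose by 0.56 (SE 0.08, adjusted p = 3.78e-06).

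Among the genes that fell in that comparison, ESRP2 measured 7.07, 7.13 and 7.43 without and 6.39, 6.34 and 6.07 with estradiol. It fell by 0.94 (a change of -0.94, SE 0.09, adjusted p = 1.51e-08 in limma) to the lowest level of any group. VIM measured 10.30, 10.33 and 10.36 without and 9.45, 9.52 and 9.55 with estradiol (-0.82, SE 0.08, adjusted p = 6.6e-09). These VIM signals lay just above the 9.24 to 9.35 of hypoxic parental cells with estradiol. ELF3 went from 6.18, 6.37 and 6.14 to 5.67, 5.57 and 5.48 (-0.66, SE 0.10, adjusted p = 1.24e-05). ZEB1 went from 4.98, 5.08 and 4.88 to 4.38, 4.46 and 4.31 (-0.60, SE 0.10, adjusted p = 1.9e-05), on this probe set the only group in which this repressor stood clearly apart. Its other probe sets changed by -0.66 to -0.12. Those at -0.12, -0.13 and -0.14 did not pass (adjusted p up to 0.421 in limma over all probe sets). CDH1 changed by -0.32 (SE 0.13, adjusted p = 0.0361), with overlapping groups of 8.46, 8.25 and 7.70 without and 7.93, 7.80 and 7.74 with estradiol. That call ended when replicate 1 or 2 of hypoxic ESR2 cells, or replicate 2 or 3 of those with estradiol, was left out (-0.53 to -0.15 over single arrays, adjusted p up to 0.297). ESRP1 (0.06), TWIST1 (-0.16) and FN1 (-0.12) did not pass. Without replicate 3 of hypoxic ESR2 cells FN1 passed with -0.46 (adjusted p = 0.000908) and TWIST1 with -0.18, and TWIST1 also without replicate 2 of these cells or replicate 3 of those with estradiol (-0.21 in both), at signals under the medians of the arrays.

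With the 3′ minus 5′ index as a covariate, 6706 genes were called for estradiol in hypoxic ESR2 cells, and 3551 when replicate 2 of parental normoxia, the array with the highest index, was also left out. With the covariate alone 7 of the 10 genes were called: the calls of ESRP2 (adjusted p = 1.4e-05), ELF3 (-0.71, adjusted p = 0.00184), SNAI1 (0.66), SNAI2 (0.63), ZEB1 (-0.41, adjusted p = 0.0346) and VIM (-1.13) held, that of CDH1 ended (-0.40, adjusted p = 0.124) and TWIST1 passed (-0.29, adjusted p = 0.039). In the fit with the array also left out 4 of the 10 genes were called: ESRP2 (-1.32, adjusted p = 0.000366), SNAI1 (0.77, adjusted p = 0.00549), SNAI2 (0.61, adjusted p = 0.0494) and VIM (-1.07, adjusted p = 3.52e-05). The calls of CDH1 (-0.18, adjusted p = 0.77), ELF3 (-0.23, adjusted p = 0.569) and ZEB1 (-0.65, adjusted p = 0.0594) ended. On the second probe set CDH1 changed by 0.10 and ESRP1 by -0.34 (adjusted p = 0.00297), which turns the sign of both.

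**Figure D5:**
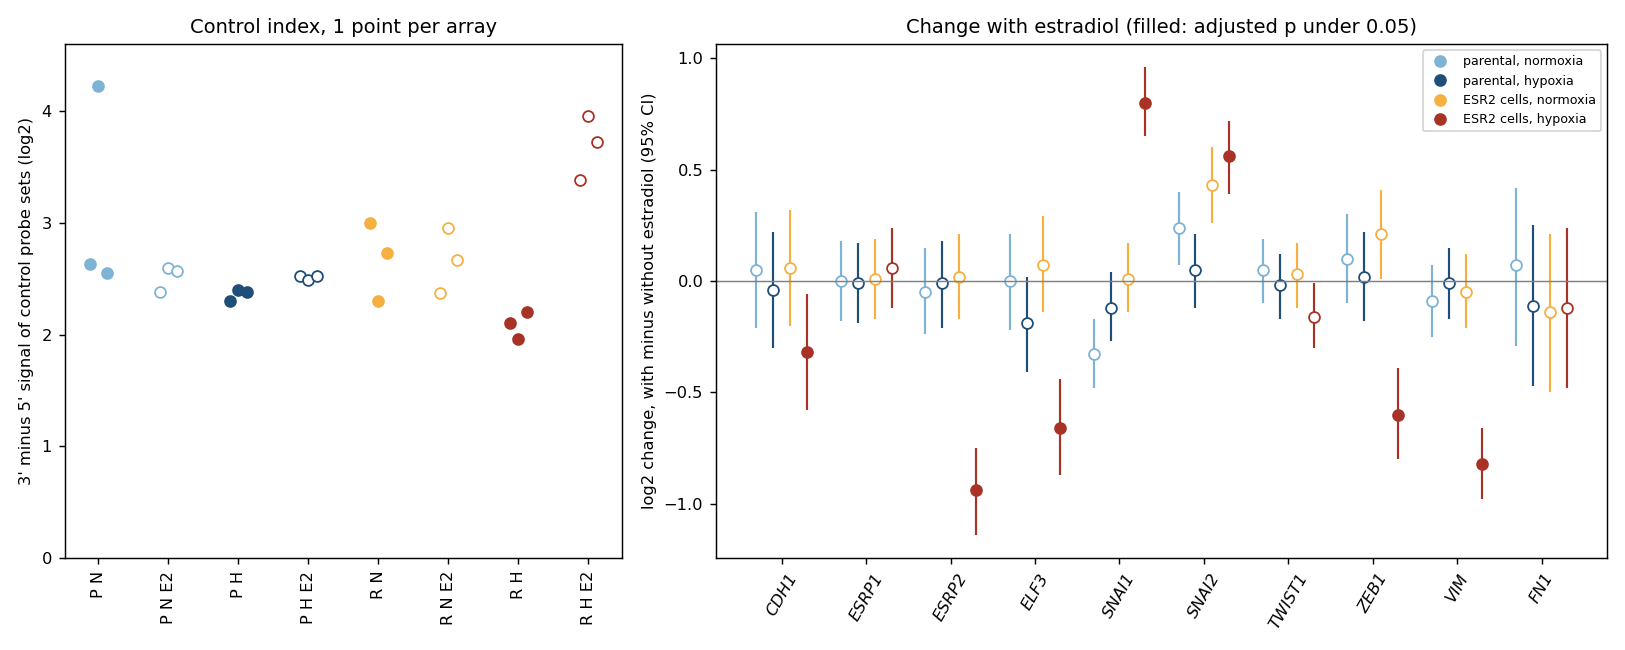
Left, 3′ minus 5′ log2 signal of control probe sets on each array, by group (P parental, R ESR2 cells, N normoxia, H hypoxia, E2 estradiol as open points); right, log2 change of each gene with estradiol in the 4 settings, with 95% confidence intervals, filled where limma's adjusted p was under 0.05. The hypoxic ESR2 arrays with estradiol have an index of 3.38 to 3.96 and are the only setting with filled points.

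The effect of estradiol was also compared between settings. Between hypoxia and normoxia in ESR2 cells it differed for 5 genes: SNAI1 (0.79) positively, and ESRP2 (-0.96), ELF3 (-0.73), ZEB1 (-0.81) and VIM (-0.78) negatively, against 25.4% and 18.4% of all genes. Between ESR2 and parental cells in hypoxia it differed for 6 genes: SNAI1 (0.92) and SNAI2 (0.51) positively, and ESRP2 (-0.93), ELF3 (-0.46), ZEB1 (-0.62) and VIM (-0.81) negatively, against 23.4% and 18.6%. In both, the same arrays with the raised index enter. Without replicate 3 of hypoxic ESR2 cells CDH1 passed as well, with -0.60 (adjusted p = 0.000862) and -0.49 (adjusted p = 0.00432), and FN1 in the second comparison (-0.35, adjusted p = 0.0486). In that second comparison the call of ELF3 ended with quantile normalization again (-0.22, adjusted p = 0.264), on its second probe set (-0.38, adjusted p = 0.0896) and with the index as a covariate and replicate 2 of parental normoxia left out (-0.08, adjusted p = 0.865). In the last of these fits the calls of SNAI2 (0.55, adjusted p = 0.069) and ZEB1 (-0.67, adjusted p = 0.0501) ended too, and in the first comparison that of ELF3 (-0.30, adjusted p = 0.472). The interaction with hypoxia in parental cells called 0 members and 1 gene (0.00548%), with 921 genes at an unadjusted p under 0.05 in limma. The interaction with ESR2 in normoxia called 0 members and 0 genes (0%), with 1230 at an unadjusted p under 0.05.

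The comparisons within estradiol-treated cells repeat those above on other arrays. In parental cells with estradiol hypoxia raised CDH1 (1.94), ESRP1 (1.28), ELF3 (1.21), SNAI2 (0.27), VIM (1.07) and FN1 (1.85) and lowered ESRP2 (-0.61) and SNAI1 (-0.36), with 16.1% of all genes higher and 18.7% lower. All 6 arrays of these groups are distinct from those without estradiol. In ESR2 cells with estradiol 7 genes rose and 2 fell, against 29.6% and 22.6% of all genes. The hypoxic arrays of this comparison are those with the raised index (3.38 to 3.96, against 2.37 to 2.95 in normoxia with estradiol). Hypoxia and the state of the labelled RNA therefore cannot be told apart in it. Here SNAI1 rose by 0.56 (SE 0.08, adjusted p = 1.39e-06 in limma), whereas it fell in the other 3 settings. ZEB1 changed by -0.92 (SE 0.10, adjusted p = 2.58e-08) and ESRP2 by -1.13 (SE 0.09). The other probe sets of ZEB1 changed by -0.71 to -0.12. Those at -0.12, -0.15 and -0.17 did not pass (adjusted p up to 0.325 in limma over all probe sets). CDH1 rose by 0.96, ESRP1 by 0.28, ELF3 by 0.54, SNAI2 by 1.51, VIM by 0.85 and FN1 by 1.12. The rise of ESRP1 ended without replicate 1 of normoxic or replicate 2 of hypoxic ESR2 cells with estradiol (adjusted p up to 0.054), and its second probe set gave -0.23 (adjusted p = 0.0369). That rise held with the index as a covariate (0.35, adjusted p = 0.0132). It ended when replicate 2 of parental normoxia was also left out (0.22, adjusted p = 0.299). In the latter fit 8 members and 6123 genes were called, against 9534 genes in the main model.

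With estradiol in normoxia, ESR2 cells again had more CDH1 (0.69), ESRP1 (0.40), VIM (0.44) and FN1 (1.14) than parental cells, and less SNAI2 (-0.41). These 4 genes higher and 1 lower stood against 8.45% and 5.22% of all genes. The difference of FN1 did not pass on its second probe set (0.22, adjusted p = 0.213) and that of CDH1 was 0.02 there. With estradiol in hypoxia, 3 genes were higher in ESR2 cells (SNAI1 by 0.87, SNAI2 by 0.82 and VIM by 0.21) and 4 lower (ESRP1 with a difference of -0.60, ESRP2 of -0.70, ELF3 of -0.51, and ZEB1 with a 95% confidence interval of -1.21 to -0.80), against 27.8% and 19.8%. CDH1 (-0.29, adjusted p = 0.0606 in limma) and FN1 (0.40, adjusted p = 0.0572) did not pass, though their groups did not overlap. Both passed with array weights and with the spread from only the groups compared. CDH1 also passed with a robust prior and intensity trend (adjusted p = 0.0487), and FN1 with quantile normalization again (0.51, adjusted p = 0.0125). Over 17 alternatives CDH1 ranged from -0.36 to 0.20 and FN1 from 0.08 to 0.66. The call of VIM held in 9 of 17 alternatives. It ended without replicate 2 or 3 of either group, 4 of the 6 arrays (adjusted p up to 0.104). It also ended with the index as a covariate (-0.02, adjusted p = 0.897). The second VIM set gave only 0.05 (adjusted p = 0.719), and both VIM sets averaged gave 0.13 (adjusted p = 0.174). The call of ELF3 ended with the covariate and 1 array left out (-0.20, adjusted p = 0.492). It ended too once all 3 ELF3 sets were averaged (-0.03, adjusted p = 0.777). The hypoxic response differed between the lines for 8 genes with estradiol, positively for SNAI1 (0.92) and SNAI2 (1.24) and negatively for CDH1 (-0.98), ESRP1 (-1.01), ESRP2 (-0.52), ELF3 (-0.68), ZEB1 (-1.06) and FN1 (-0.73), against 20.6% and 18.1% of all genes. For ESRP2 the sign was opposite to that without estradiol (0.48). VIM also turned, from 0.64 to -0.23 (SE 0.11, adjusted p = 0.112 in limma), and the latter value passed on the second probe set (-0.48, adjusted p = 0.0111), averaged over both sets (-0.35, adjusted p = 0.0144) and with the index as a covariate (-0.43, adjusted p = 0.00102); over 23 alternatives it ranged from -0.48 to -0.18 and passed in 6. The difference of FN1 rested on its brightest probe set: it was -0.07 on the second (adjusted p = 0.772) and -0.18 on the mean of probe sets (adjusted p = 0.255). That call also ended with the index as a covariate (-0.64, adjusted p = 0.081), with 1 array left out as well (-0.51, adjusted p = 0.338), and without replicate 3 of normoxic ESR2 cells with estradiol (-0.66, adjusted p = 0.0548). The call of ELF3 ended averaged over its 3 sets (-0.23, adjusted p = 0.153) and with the covariate and 1 array left out (-0.40, adjusted p = 0.138). On its second probe set CDH1 had 0.18 (adjusted p = 0.278). The arrays with the raised index enter this response and the difference between the hypoxic lines with estradiol.

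Across the 8 group means, CDH1 varied most like ELF3 and FN1 among the 10 genes (Pearson r = 0.95 for both), and also with ESRP1 (0.90) and VIM (0.89). VIM and FN1 had r = 0.91, and CDH1 and ESRP2 r = -0.72. SNAI1, SNAI2 and ZEB1, the annotated CDH1 repressors, had r = -0.44, 0.63 and -0.16 with CDH1. These are descriptions over 8 points that share arrays, normalization and the contrast of hypoxia with normoxia. Among 3441 other genes above the median signal whose group means span at least 1 log2 unit, those most like CDH1 were ZNF160 (r = 0.990), PDGFRL, ADGRG6 and DUSP6 (each 0.989) and ARLN (0.987). For VIM they were INPPL1 (0.997), WSB1 (0.988) and UBE2H (0.979), and for FN1 EHHADH (0.991), SEL1L3 and TUBA1A (each 0.989).

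Other genes of the same pathways were taken from 6 fixed lists, of which 77 of 81 genes were measured. Their changes are those in hypoxia without estradiol unless stated. Of 13 genes of cadherins, catenins and other adhesion proteins 6 rose and 1 fell in hypoxic parental cells and 8 rose and 0 fell in ESR2 cells, with medians of 0.12 and 0.24. CDH3, which encodes P-cadherin, rose by 1.38 and 0.95 in the 2 lines, and VCL, the junctional actin linker vinculin, by 0.76 and 0.78. CTNND1, p120 catenin, which stabilizes E-cadherin at the membrane, rose by 0.71 and 0.47, and JUP, plakoglobin, by 0.72 and 0.38. Without estradiol CDH1 thus rose with VCL, CTNND1 and JUP of this list. With estradiol, hypoxia in ESR2 cells raised 5 and lowered 4 genes of the list, CTNND1 being among the lowered (-0.26, adjusted p = 0.00987 in limma). Of 18 other mesenchymal and matrix genes 10 rose and 1 fell in parental cells and 8 rose and 3 fell in ESR2 cells (medians 0.34 and 0.26). S100A4, a calcium-binding protein of motile cells, rose by 1.30 and 1.38, CD44, the hyaluronan receptor, by 1.06 and 0.95, and the adhesion molecule L1CAM by 0.85 and 1.43.

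Of 11 other EMT transcription factors 2 rose and 0 fell in parental cells and 2 rose and 1 fell in ESR2 cells (medians 0.14 and -0.11). The risers were SOX4 (1.06 and 0.46) and TCF3 (0.41 and 0.33), and FOXC2 fell in ESR2 cells (-0.28). With estradiol SOX4 and TCF3 rose in parental cells too (1.12 and 0.43). In ESR2 cells with estradiol hypoxia raised 2 and lowered 2 genes of this list, the lowered ones being SOX4 (-0.62) and TCF3 (-1.19). Of 12 epithelial transcription factors 1 rose and 3 fell in parental cells and 4 rose and 1 fell in ESR2 cells (medians 0.01 and 0.05). KLF4, a factor of epithelial differentiation, rose by 1.46 and 1.28, while GRHL1, a grainyhead factor, changed by -1.43 and -0.36. Of 13 TGF-beta and SMAD genes 3 rose and 0 fell in parental cells and 7 rose and 2 fell in ESR2 cells (medians 0.10 and 0.36). The inhibitory SMAD genes differed in size: SMAD6 rose by 0.64 and 1.85, and SMAD7 changed by -0.17 (adjusted p = 0.281 in limma) in parental cells and rose by 1.52 in ESR2 cells. Of 10 corepressor and chromatin genes that act with CDH1 repressors 1 rose and 3 fell in parental cells and 4 rose and 3 fell in ESR2 cells (medians -0.01 and 0.12). EZH2, the polycomb methyltransferase, changed by -1.28 and -0.40. Each list's counts without estradiol are to be read against the 16.4% and 21.2% of all genes called in parental and 14.4% and 18.2% in ESR2 cells. Those with estradiol in ESR2 cells stand against 29.6% and 22.6%, and rest on the arrays with the raised index.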

How the data were processed

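Total RNA of 24 HCT116 samples was labelled and prepared with the IVT Express kit and hybridised to Affymetrix arrays, per the labels' protocols, which give RNA integrity numbers of 8.5 to 10. The authors deposited log2 values made with RMA, named with affy in the submitters' processing notes without versions. RMA corrects background, makes the arrays' distributions alike, which removes a shift common to most genes, and compresses changes of dim genes. No further normalization was applied; array medians differed by less than 0.1.

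Of 49293 probe sets that are not controls, 45253 carry 1 gene symbol in GEO's platform annotation, 1327 several and 2713 none here; only the first were used. The brightest probe set stood for each of 18239 genes. The main model had 1 coefficient per group over all 24 arrays (limma 3.58.1, lmFit and eBayes, R 4.3.3) and left 16 residual degrees of freedom, and p-values were adjusted by Benjamini-Hochberg over all genes of each of 18 comparisons. With only 3 arrays in a group, precision is low. The fit was tested on simulated data. Figures were drawn with matplotlib 3.10.9, and promoters were searched with Python 3.11.15.

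The genes and lists were chosen with earlier results of these data known. Beside the 10 genes, up to 4 genes per list with the smallest adjusted p in hypoxia in each line and the genes with the most similar group means could be named; those given are examples of them. Markers of fibroblasts, leukocytes and the packaging line stood for other cells, and listed genes that no probe set names were not used here. The alternatives tried were a second quantile normalization, centring of each array on its median, omission of the dimmest genes (1 in 3), each gene's second brightest probe set or its probe sets' mean, a robust prior with an intensity trend, array weights, the spread from only the groups compared, a replicate block, the 3′ minus 5′ index as a covariate and leaving out each array. The covariate with replicate 2 of parental normoxia left out was added after the data were seen.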

Additional observations from a re-analysis of the deposited data

Results flagged for a closer look

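A difference of effect between settings, tested as an interaction in limma, passed the threshold for the following genes. Each value is a difference of log2 changes.

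The change in hypoxia differed between ESR2 and parental cells without estradiol for CDH1 (-0.70, SE 0.18), ESRP1 (-1.06, SE 0.12), ESRP2 (0.48, SE 0.13), SNAI1 (0.33, SE 0.11), SNAI2 (0.92, SE 0.11), VIM (0.64, SE 0.11) and FN1 (-0.93, SE 0.24). With estradiol it differed for CDH1 (-0.98, SE 0.18), ESRP1 (-1.01, SE 0.12), ESRP2 (-0.52, SE 0.13), ELF3 (-0.68, SE 0.15), SNAI1 (0.92, SE 0.11), SNAI2 (1.24, SE 0.11), ZEB1 (-1.06, SE 0.14) and FN1 (-0.73, SE 0.24). CDH1, ESRP1 and FN1 were negative in both and SNAI1 and SNAI2 positive in both, on different arrays, while ESRP2 changed sign. VIM turned as well, to -0.23 with estradiol (SE 0.11, adjusted p = 0.112 in limma), which did not pass. The values with estradiol include the hypoxic ESR2 arrays with estradiol, which had the raised index.

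The effect of estradiol differed between hypoxic and normoxic ESR2 cells for ESRP2 (-0.96, SE 0.13), ELF3 (-0.73, SE 0.15), SNAI1 (0.79, SE 0.11), ZEB1 (-0.81, SE 0.14) and VIM (-0.78, SE 0.11). It differed between ESR2 and parental cells in hypoxia for ESRP2 (-0.93, SE 0.13), ELF3 (-0.46, SE 0.15), SNAI1 (0.92, SE 0.11), SNAI2 (0.51, SE 0.11), ZEB1 (-0.62, SE 0.14) and VIM (-0.81, SE 0.11). These share the 3 hypoxic ESR2 arrays with estradiol, whose 3′ minus 5′ index was 3.38 to 3.96. No fixed rule for outlying arrays was applied to groups of 3 arrays, though each array was left out in turn.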

How the results depend on the processing

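The replicate numbers did not pair the arrays: of 84 correlations between same-numbered arrays' deviations 9 were over 0.1 (median -0.02, range -0.29 to 0.29), and 1 of 24 arrays lay closest to its own number. With a replicate block, genes called for estradiol became 0 in normoxic parental cells and 1 in normoxic ESR2 cells, and among the 10 genes the block ended only the rise of ESRP1 in ESR2 cells (adjusted p = 0.0583 in limma).

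Of 1818 values of the 10 genes under settings that keep all arrays or use the covariate without 1 array, 1726 kept direction and side of the threshold, 50 lost the call, 32 gained it and 10 turned sign. These leave out 144 values of the 4 genes with 1 probe set (ESRP2, SNAI1, SNAI2 and TWIST1) under the probe set settings, which could not change in size. Sign changes between values that were both uncalled are counted as kept. TWIST1 is not among the values without the dimmest genes. Of 1440 values with 1 array left out, 1404 were kept, 21 lost the call, 15 gained it and 0 turned.

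On the second brightest probe set these turned: ESRP1 in hypoxia in ESR2 cells with estradiol (-0.23), with estradiol in hypoxic ESR2 cells (-0.34) and in that effect's interactions with hypoxia (-0.37) and with ESR2 (-0.41), and CDH1 between normoxic lines (-0.07), with estradiol in hypoxic ESR2 cells (0.10) and in the interaction of hypoxia with ESR2 without (0.13) and with estradiol (0.18). ELF3 between hypoxic lines turned on the mean of probe sets (0.30) and VIM between hypoxic lines with estradiol with the index as covariate (-0.02).

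Counts of the 10 genes called moved past 1.5 times to 3 between normoxic lines on the second probe set, to 2 and 1 for estradiol in normoxic parental and normoxic ESR2 cells with array weights, and, with the covariate and 1 array left out, to 4 for estradiol in hypoxic ESR2 cells and 3 for its interaction with ESR2. Counts of all genes moved between normoxic lines to 5187 with array weights and 1061 with the spread of the compared groups, and with estradiol to 4437 and 3772. With the covariate they became 6706 for estradiol in hypoxic ESR2 cells, and with the covariate and 1 array left out 3551, 6123 for hypoxia in ESR2 cells with estradiol, 5414 between hypoxic lines with estradiol, and 3280 and 3717 for the interactions of estradiol with hypoxia in ESR2 cells and with ESR2 in hypoxia.

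Small counts also moved. For estradiol in normoxic parental cells they were 1 with quantile normalization again, the mean of probe sets or the intensity trend, 604 with array weights, and 0 with the second probe set, the spread of the compared groups, the covariate, and the covariate with 1 array left out. In hypoxic parental cells they were 6 on the second probe set, 59 with array weights and 1 with the spread of the compared groups. In normoxic ESR2 cells they were 5 with array weights and 1 with quantile normalization again, centring, the mean of probe sets, the intensity trend, the spread of the compared groups and the covariate. For the interaction of estradiol with hypoxia in parental cells they were 0 with centring, the mean of probe sets or the second probe set, 3 with the intensity trend and 13 with array weights, and for that with ESR2 in normoxia 1 with the mean of probe sets and 29 with array weights.

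Leaving out 1 array at a time gave 0 to 643 genes and 0 to 1 members for estradiol in normoxic parental cells, 1 to 3 genes in hypoxic parental and 0 to 1 in normoxic ESR2 cells. It gave 0 to 2 and 0 to 1 genes for the interactions of estradiol with hypoxia in parental cells and with ESR2 in normoxia. Precision is limited by 3 arrays a group and, for TWIST1, by a signal under the medians of all arrays.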
